A study of Mus musculus with 2 samples.

Results

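Dividing basal keratinocytes are the cells of the lowest epidermal layer that were caught in the cell cycle. They were 1318 of the 32541 barcodes deposited from mouse skin, 667 in the sitagliptin-labelled and 651 in the PBS-labelled library. A barcode was a member when it had at least 500 genes, at least 3000 unique molecular identifiers (UMIs, which count captured RNA molecules) and at most 10% mitochondrial UMIs. Its Krt5 and Krt14 UMIs had to reach 1% of its total and more than 2 times those of Krt1 and Krt10, the keratins of the layers above. It could hold at most 2 UMIs of Krt79, at most 1 of Krt75 and none of Cd34 and Lgr5, which mark parts of the hair follicle. Finally, at least 3 of 8 cell cycle genes (Mki67, Top2a, Cdk1, Ccnb1, Ccna2, Birc5, Ube2c and Cenpf) had to be detected. Members were thus chosen by the measured levels of these genes and of the keratins and follicle genes named above, which are given below as a description.

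The sitagliptin group received 100 ng of the compound, which inhibits the peptidase Dpp4, in 100 µl PBS by injection into the skin. The PBS group received the buffer alone. The labels give C57Bl6 mice of 8 weeks, male and female, without their number or any pooling, and a time of 48 h, worded as following the skin's processing, so that the interval from injection is unclear. Each treatment had 1 library, so there are no replicates and no test was made. Every interval below is an exact 95% interval that covers counting error only. Each library's deposited name has the initial of the other treatment, so the libraries are called here by their labels, and every direction between them would turn if the labels were exchanged. The libraries held 22085 and 10456 barcodes with 95047000 and 70729930 UMIs in the sitagliptin-labelled and the PBS-labelled library, and 75 barcodes occurred in both, 2 and 8 of them among the members. The members were shallower in the sitagliptin-labelled library, with 3028 to 27854 UMIs (median 6996), than in the PBS-labelled one, with 3034 to 62445 UMIs (median 10930). Xist, the RNA of the silenced X chromosome, was found in 539 of 667 sitagliptin-labelled and 645 of 651 PBS-labelled members. These are counts at full depth, which differs between the libraries, and Xist was not compared at equal depth. No member held a UMI of a Y-linked gene, which by a floor of 3 counts allows shares of members with such a UMI of up to 0.450% and 0.461%, and says nothing of cells without a captured molecule.

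Basal keratinocytes sit on the basement membrane, which they grip through integrins and hemidesmosomes, and they are the layer in which the epidermis divides. Their daughters either stay basal or detach and switch from Krt5 and Krt14 to Krt1 and Krt10 as they differentiate. A cell that enters the cycle makes the machinery of DNA replication in S phase, then the kinases, kinetochore and spindle proteins of mitosis, and destroys many of these mitotic proteins as it exits. Mki67 encodes a protein that coats mitotic chromosomes, Top2a the topoisomerase that untangles replicated DNA, and Cdk1 the kinase that starts mitosis. Ccnb1 and Ccna2 encode cyclins that activate Cdk1, and Birc5 encodes survivin of the chromosomal passenger complex. Ube2c encodes a ubiquitin-conjugating enzyme of the anaphase-promoting complex, and Cenpf a protein of the outer kinetochore.

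Genes of this late phase are known to be switched through CHR elements, with the core letters TTTGAA, bound by the DREAM and MuvB complexes, and through CCAAT boxes bound by NF-Y. The promoters of the 3 cycle genes that mark the members are shown because their letters carry these elements. They are RefSeq sequence of GRCm38.p6, 5′ to 3′ along the gene, with TTTGAA and CCAAT or their reverse complements TTCAAA and ATTGG in capitals. Top2a lies on the minus strand of chromosome 11, and its promoter is chr11:99024190-99024439. Mki67 lies on the minus strand of chromosome 7, with the promoter at chr7:135716380-135716629. Cdk1 lies on the minus strand of chromosome 10, and chr10:69352939-69353162 is shown, without the 26 bases nearest the start, where an annotated transcript begins.
Top2a: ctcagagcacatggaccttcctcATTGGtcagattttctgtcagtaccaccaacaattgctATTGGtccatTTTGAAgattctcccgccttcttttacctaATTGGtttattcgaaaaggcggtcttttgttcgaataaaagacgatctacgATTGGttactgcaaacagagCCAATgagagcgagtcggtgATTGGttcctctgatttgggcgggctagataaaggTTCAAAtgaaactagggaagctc
Mki67: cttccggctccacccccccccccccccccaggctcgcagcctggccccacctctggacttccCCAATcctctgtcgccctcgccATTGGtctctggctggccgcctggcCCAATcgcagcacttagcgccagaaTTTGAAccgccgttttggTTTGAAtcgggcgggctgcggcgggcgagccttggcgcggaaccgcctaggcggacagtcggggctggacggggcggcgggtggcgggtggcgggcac
Cdk1: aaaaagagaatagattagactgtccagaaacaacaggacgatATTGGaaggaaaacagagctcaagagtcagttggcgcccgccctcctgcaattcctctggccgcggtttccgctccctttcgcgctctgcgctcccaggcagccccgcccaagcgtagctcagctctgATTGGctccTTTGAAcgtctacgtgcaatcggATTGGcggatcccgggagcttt

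Top2a held TTTGAA 179 bases and its reverse complement 23 bases upstream of the RefSeq start, with 6 CCAAT boxes between 227 and 58 bases upstream. Mki67 held TTTGAA at 116 and 98 bases and CCAAT boxes at 188, 166 and 141 bases. Cdk1 held TTTGAA at 71 bases and CCAAT boxes at 208, 80 and 48 bases. No match overlapped another. Over both strands, TTTGAA was present in 16.0% and CCAAT in 33.9% of all 32851 tabulated promoters, and both together in 5.55%. Of the 8 cycle genes 7 matched a tabulated promoter, and 4 of these 7 held both, as did 16 of 69 promoters (23.2%) of the wider mitotic lists described below. Among replication genes 4 of 47 promoters (8.51%) held both, and among genes of basal adhesion 0 of 13. CCAAT alone was in 72.5% of the mitotic, 59.6% of the replication and 23.1% of the adhesion promoters. A match describes the letters and is not evidence that a factor binds there.

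Krt14 and Krt5 were detected in all 667 and all 651 members, which the rule fixes. Krt15, a basal keratin that the rule did not use, was detected in 94.9% of the sitagliptin-labelled and 95.2% of the PBS-labelled ones. Krt5 and Krt14 together took a median of 3.53% of the UMIs of sitagliptin-labelled and 3.36% of those of PBS-labelled members. In the PBS-labelled library, 305 barcodes had under 0.1% of their UMIs from Krt5, Krt14, Krt1 and Krt10, and are called non-keratinocyte below. The limit does not keep out keratinocytes with little of these 4 keratins. Krt14 was found in 78.4% and Krt15 in 32.8% of these barcodes, which had a median of 5807 UMIs. The sitagliptin-labelled library had 4 such barcodes. Among the cycle genes, Mki67 was found in 97.9% of sitagliptin-labelled and 96.8% of PBS-labelled members, Top2a in 91.0% and 86.5%, and Cdk1 in 69.4% and 71.3%. In the 305 non-keratinocyte barcodes these shares were 13.1%, 16.1% and 9.51%. With every member thinned at random to 3000 UMIs, Mki67 was found in 87.0% of sitagliptin-labelled and 81.4% of PBS-labelled members, Top2a in 84.3% and 70.8%, and Cdk1 in 43.8% and 36.9%.

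As counted, the number of cycle genes per basal cell had peaks at both ends of its range. No cycle gene was detected in 396 of 1381 sitagliptin-labelled basal keratinocytes (28.7%) and in 471 of 1438 PBS-labelled ones (32.8%), and these cells are called non-dividing below. All 8 were detected in 240 (17.4%) and 292 (20.3%) cells. Thinned to 3000 UMIs these shares were 3.55% and 2.23%, and the upper peak lay at 6 genes, with 8.98% of sitagliptin-labelled and 8.07% of PBS-labelled cells, so its place at the end of the range goes with depth. Just inside the limit, 65 sitagliptin-labelled and 74 PBS-labelled members had exactly 3 of the genes, and just outside it 112 and 100 cells had 2. Under 4000 UMIs, near the minimum, lay 67 of the sitagliptin-labelled and 16 of the PBS-labelled members. In the sitagliptin-labelled library 46 had under 1.5% of UMIs from Krt5 and Krt14, against 36 in the PBS-labelled library, and 53 against 37 had under 4 times the UMIs of Krt1 and Krt10. With a minimum of 1000 UMIs there would have been 933 and 662 members, and with at most 5% mitochondrial UMIs 317 and 246. The follicle limits left out 327 of 994 sitagliptin-labelled (32.9%) and 165 of 816 PBS-labelled cells (20.2%) that met every other condition, mostly through Krt79 (246 and 126 cells).

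**Figure D1:**
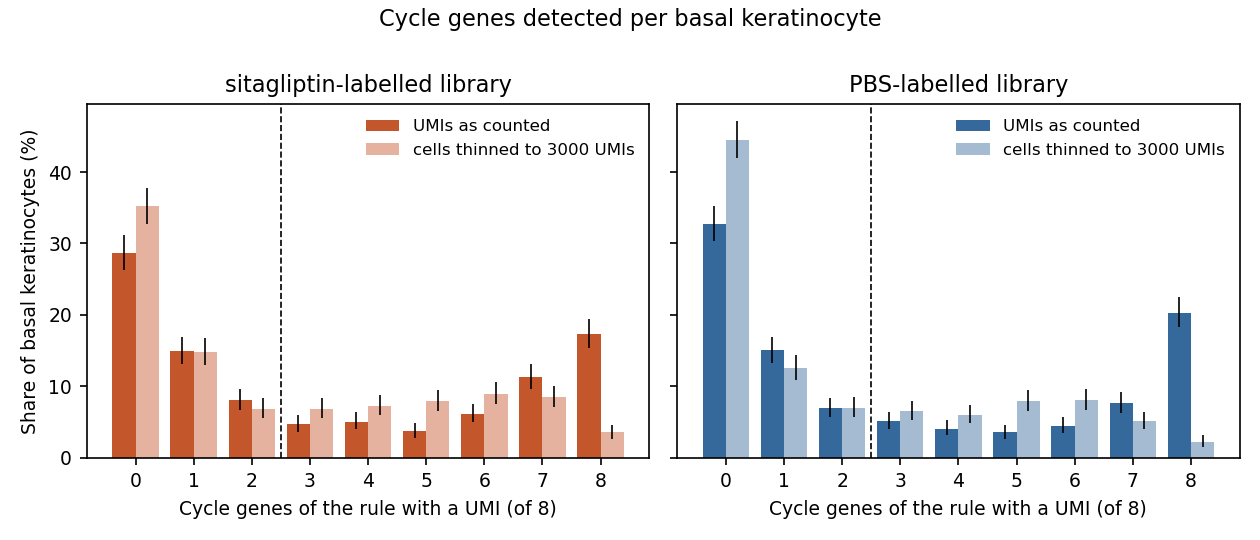
Share of basal keratinocytes (percent, vertical axis) by the number of the 8 cycle genes with at least 1 UMI (horizontal axis), in the sitagliptin-labelled (left) and the PBS-labelled library (right), as counted and thinned to 3000 UMIs per cell; vertical lines are exact 95% intervals, and the dashed line marks the limit of 3 genes. Cells without a cycle gene (28.7% and 32.8%) and cells with all 8 (17.4% and 20.3%) form the ends of the distribution as counted, and after thinning the upper peak lies at 6 genes.

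Of the basal keratinocytes, 48.3% were dividing in the sitagliptin-labelled library (667 of 1381 cells, 45.6 to 51.0) and 45.3% in the PBS-labelled library (651 of 1438 cells, 42.7 to 47.9). Depth moves with this share. Thinned to 3000 UMIs, 43.2% (40.5 to 45.8) of sitagliptin-labelled and 36.0% (33.5 to 38.5) of PBS-labelled basal cells passed. Among basal cells with 5000 to 10000 UMIs the shares were 64.2% (374 of 583 cells) and 33.2% (239 of 720 cells), and among those with at least 10000 UMIs 83.4% (136 of 163) and 72.9% (373 of 512). Below 5000 UMIs they were 24.7% (157 of 635) and 18.9% (39 of 206). The sitagliptin-labelled share was thus higher in each depth range, while the direction turned under other cell filters: it was 31.5% in the sitagliptin-labelled library, or 0.721 times the PBS-labelled share, with a limit of 1000 UMIs, and 55.3% against 65.4% with at most 5% mitochondrial UMIs. Whether the treatment, the cells recovered or their depth set the share was not tested. Counted against all retained barcodes, dividing basal cells were 9.78% of 6818 in the sitagliptin-labelled and 13.1% of 4955 in the PBS-labelled library. Suprabasal keratinocytes were dividing by the same condition in 33.1% (731 of 2206) and 22.9% (221 of 967), or 17.7% and 9.31% when thinned. As counted, basal cells were 47.7% of all dividing basal and suprabasal cells in the sitagliptin-labelled and 74.7% in the PBS-labelled library. Thinned, 596 basal and 390 suprabasal cells passed in the sitagliptin-labelled and 517 and 90 in the PBS-labelled library. These splits also go with the number of suprabasal cells, 2206 and 967.

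Most members carried more RNA of listed G2 and mitosis genes than of listed replication genes. UMIs were summed per cell, thinned to 3000, over 47 replication genes (origin licensing, replication fork and nucleotide supply) and 72 genes of G2 phase and mitosis (kinases, kinetochore, spindle and mitotic exit), none of them among the 8 that chose the cells. G2/M UMIs exceeded S phase UMIs in 87.1% of sitagliptin-labelled (581 of 667) and 85.4% of PBS-labelled members (556 of 651). The S phase sum was larger in 10.6% (71 of 667, 8.41 to 13.2) and 12.7% (83 of 651, 10.3 to 15.6), intervals that overlap. Because the rule chose cells mostly by genes of G2 and mitosis, the excess of G2/M UMIs partly repeats the choice of members. The lists also differ in size and level, so the share orders cells within this set and is not a count of cells in each phase. In non-dividing basal cells the G2/M sum was larger in 47.2% of sitagliptin-labelled and 48.6% of PBS-labelled cells. The S phase sum was larger in 37.4% and 35.2% of them. The median was 32 G2/M UMIs per 3000 in sitagliptin-labelled and 28 in PBS-labelled members, against 3 in non-dividing basal cells of each library. The median of S phase UMIs was 6 in members of both libraries, against 3 and 2 in non-dividing cells.

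Members with few cycle genes leaned toward S phase more often. The S phase sum was larger in 29.0% of sitagliptin-labelled and 32.1% of PBS-labelled members with 3 to 5 cycle genes, in 6.22% and 10.9% of those with 6 or 7, and in 0.833% and 1.71% of those with all 8. The rule's genes are mostly of G2 and mitosis, so this gradient partly repeats the choice of members. Replication histone UMIs, which belong to neither sum, averaged 4.01, 7.20 and 5.68 per 3000 UMIs in sitagliptin-labelled members with 3 to 5, 6 or 7 and 8 cycle genes, and 2.40, 8.74 and 7.28 in PBS-labelled ones. They were therefore highest in the middle class in both libraries. Across cells the S phase and G2/M sums were almost unrelated within the members, with Spearman's rho of −0.14 over 667 sitagliptin-labelled and −0.067 over 651 PBS-labelled cells, points that share their library.

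**Figure D2:**
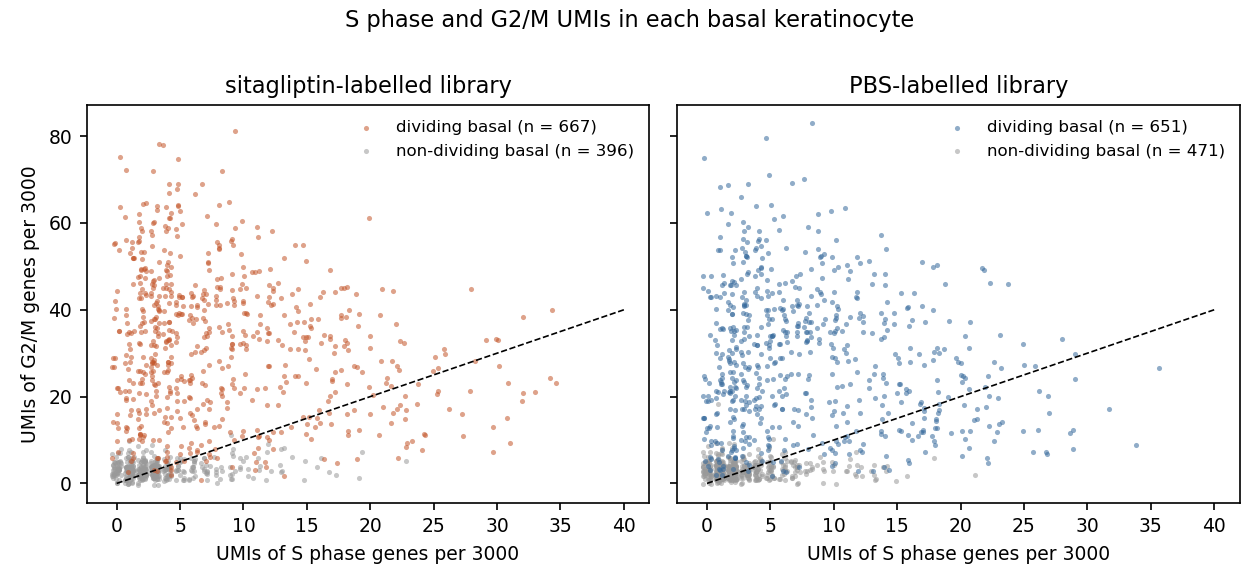
Each point is a basal keratinocyte thinned to 3000 UMIs, with its UMIs of 47 S phase genes (horizontal axis) and of 72 G2/M genes (vertical axis), jittered slightly, in the sitagliptin-labelled (left) and the PBS-labelled library (right). Dividing cells (coloured) spread upward to medians of 32 and 28 G2/M UMIs, non-dividing cells (grey) stay near the origin, and 10.6% and 12.7% of dividing cells lie below the dashed line of equal sums.

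Set against non-dividing basal cells of the same library, the members showed how far each part of the cycle machinery goes with the 8 genes. This contrast is the one that chose the cells, so its values are a description. Non-dividing cells were also shallower, with medians of 4079 and 6415 UMIs in the sitagliptin-labelled and the PBS-labelled library. Levels are UMIs summed over the cells of a group in a library and scaled to a total of 1000000 (CPM). Among 3042 genes that reached 50 CPM in 1 of the groups and a sum of 20 UMIs, 170 were at least 2-fold higher in the members of both libraries (5.59%) and 6 at least 2-fold lower (0.197%). In the sitagliptin-labelled library alone the shares were 5.88% and 0.329%, and in the PBS-labelled library 6.31% and 0.329%. The medians of gene lists below are of log2((CPM + 1) in dividing over (CPM + 1) in non-dividing cells), over list members with at least 20 UMIs. Among all genes measured so, 14.6% were at least 1.5-fold higher and 7.75% lower in the sitagliptin-labelled library, and 12.2% and 11.3% in the PBS-labelled one.

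By the median over genes, the list of the spindle and of cytokinesis stood highest, with all 26 measured genes past 1.5-fold and a median log2 ratio of 4.58 in the sitagliptin-labelled and 4.82 in the PBS-labelled library. By the ratio of summed levels the order differed, with 7.75 and 7.17 for this list against 14.96 and 17.63 for replication histones and 13.3 and 16.7 for the kinetochore. The kinetochore and checkpoint list followed, with 21 of 21 genes and medians of 4.15 and 4.43, then mitotic kinases (3.73 and 3.83), condensin and cohesin (3.21 and 2.61), replication histones (2.78 and 3.18, 17 of 18 genes) and mitotic exit (2.16 and 2.28). Tpx2, which activates Aurora A on the spindle, had 249 CPM in dividing and 3.82 CPM in non-dividing cells of the sitagliptin-labelled library, and 231 and 2.73 CPM in the PBS-labelled library, ratios of 65.1 (31.5 to 162) and 84.8 (44.6 to 186). Plk1, the polo-like kinase of mitotic entry, had 479 UMIs in dividing and 0 in non-dividing sitagliptin-labelled cells, and 739 and 2 UMIs in PBS-labelled ones. Aurkb, the kinase of the chromosomal passenger complex, had 532 UMIs in dividing and 1 in non-dividing sitagliptin-labelled cells, and 721 and 2 in PBS-labelled ones. Hmmr and Aspm, which organise spindle poles, Nusap1 and Kif11, which bundle and slide microtubules, Knl1 of the kinetochore, Ect2, the exchange factor that starts the cleavage furrow, and Pbk, Iqgap3 and Gas2l3 completed the 12 with the largest changes, and all 12 had at most 9 UMIs in the non-dividing cells of either library.

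Replication genes differed less between dividing and non-dividing cells. The median log2 ratio was 1.06 and 1.10 for origin licensing, 1.06 and 1.06 for the replication fork and 1.38 and 1.71 for nucleotide supply, and 38 of 47 genes in the sitagliptin-labelled and 43 of 47 in the PBS-labelled library were past 1.5-fold. Pcna, the sliding clamp of the fork, had 68.8 CPM in dividing and 42.0 CPM in non-dividing sitagliptin-labelled cells, and 63.9 and 30.3 CPM in PBS-labelled ones. Mcm6 of the replicative helicase was near equal, at 68.2 and 66.6 CPM and at 66.1 and 60.3 CPM. Pclaf, which binds the clamp, stood apart within its list, at 272 CPM in dividing against 13.1 CPM in non-dividing sitagliptin-labelled cells and 244 against 7.57 CPM in PBS-labelled ones, ratios of 20.8 and 32.2. Rrm2, the subunit of ribonucleotide reductase made in S phase, had ratios of 5.63 and 15.1, and shares 21.8% of the 31-base words at its 3′ end. Replication histone mRNA mostly lacks a poly(A) tail, and the libraries were made from polyadenylated RNA, so histone levels are a partial readout; Hist1h2ap, at 898 CPM in dividing and 15.3 CPM in non-dividing sitagliptin-labelled cells, shares 93.4% of the 31-base words at its 3′ end with other genes.

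**Figure D3:**
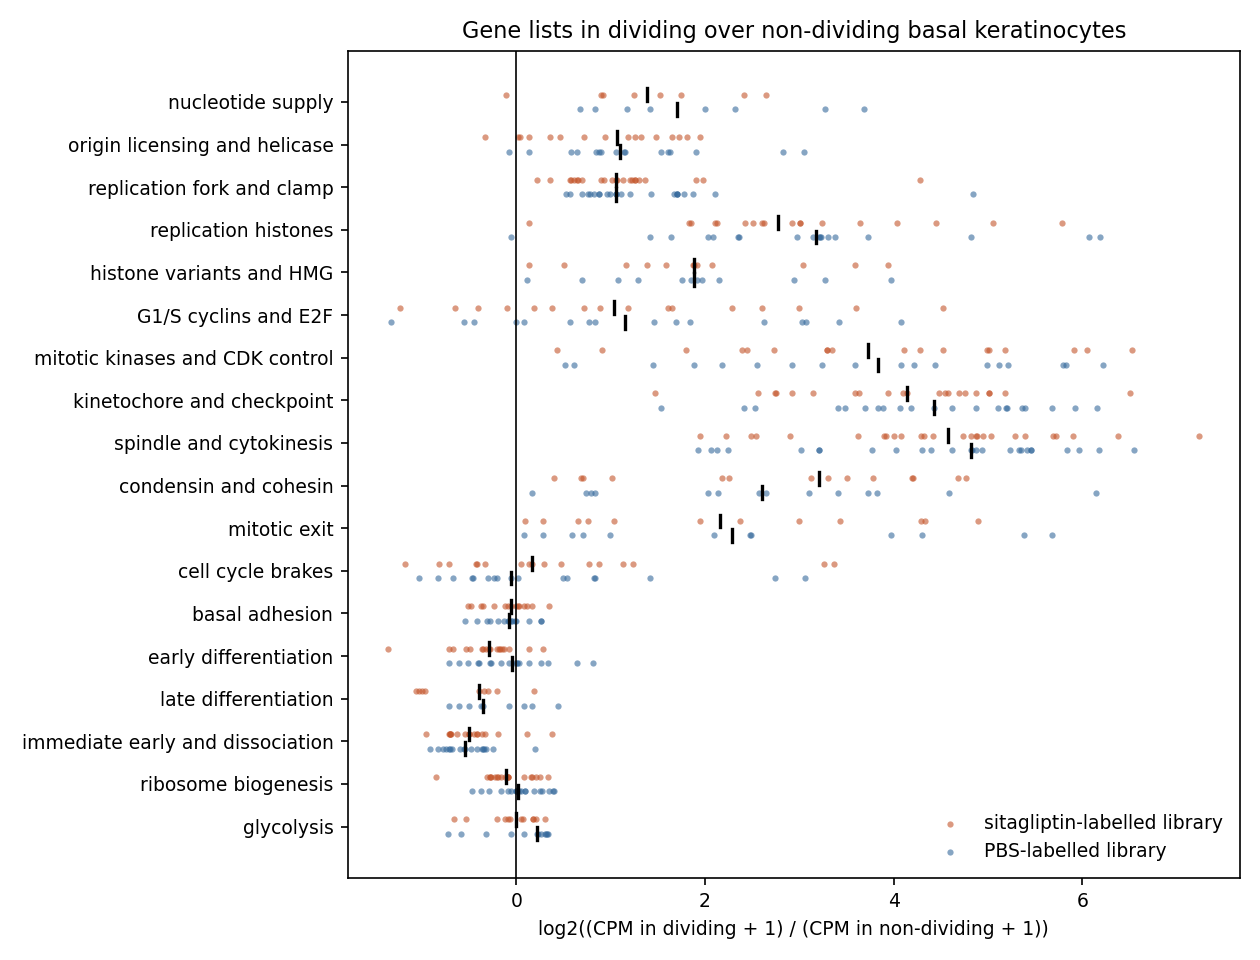
Each point is a gene, placed by its log2 ratio of CPM + 1 in dividing over non-dividing basal keratinocytes (horizontal axis), in rows by gene list, with the sitagliptin-labelled library above the PBS-labelled one and a black bar at the median. The spindle, kinetochore and kinase lists lie farthest right, with medians from 3.73 to 4.82, replication lists lie nearer 1, and basal adhesion, glycolysis and ribosome biogenesis lie around 0.

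Some genes were lower in the members than in non-dividing basal cells. Ccnd2, the D-type cyclin that carries cells from rest into G1, had 231 CPM in dividing against 545 CPM in non-dividing sitagliptin-labelled cells, and 224 against 567 CPM in PBS-labelled ones, ratios of 0.424 (0.390 to 0.462) and 0.396 (0.371 to 0.422). Its relative Ccnd1 had ratios of 0.635 and 0.677. Mxd4, a repressor that opposes Myc, had 98.2 against 224 CPM and 94.0 against 194 CPM. Fbxo32, a ubiquitin ligase subunit known from muscle atrophy, had 43.2 against 112 CPM and 45.6 against 129 CPM, the decoy interleukin-1 receptor Il1r2 had ratios of 0.392 and 0.464, and the serotonin transporter Slc6a4 had 35.2 against 82.4 CPM and 34.1 against 92.1 CPM. Igfbp3, which binds insulin-like growth factors, was lower too, with ratios of 0.453 in the sitagliptin-labelled and 0.555 in the PBS-labelled library. Immediate early genes and genes of tissue dissociation had a median log2 ratio of −0.50 in the sitagliptin-labelled and −0.55 in the PBS-labelled library, and 7 and 8 of 18 were at least 1.5-fold lower, among them Atf3 (0.508 and 0.526) and Fos (0.644 and 0.624).

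Basal identity did not separate dividing from non-dividing cells by much. Both groups had passed the same keratin and follicle limits, so likeness in basal and differentiation genes partly repeats that choice. None of the 15 genes of basal adhesion was past 1.5-fold in either library, with median log2 ratios of −0.05 and −0.07. Itga6, the integrin of hemidesmosomes, had 667 CPM in dividing and 692 CPM in non-dividing sitagliptin-labelled cells, and 698 and 707 CPM in PBS-labelled ones. Krt15 was lower in dividing cells, with ratios of 0.737 and 0.694, as was Trp63, the master regulator of the basal layer, with 0.885 and 0.716. Ribosome biogenesis (−0.11 and 0.02), glycolysis (−0.01 and 0.22) and late differentiation (−0.40 and −0.35) had medians within 1.5-fold. Among the genes that hold cells out of the cycle, the median was 0.17 and −0.06. Cdkn2c and Cdkn2d, inhibitors of Cdk4 and Cdk6 that are known to vary through the cycle, were higher in dividing cells, with ratios of 12.8 and 10.3 in the sitagliptin-labelled and 9.87 and 7.01 in the PBS-labelled library, while the antiproliferative Btg2 was lower, at 0.604 and 0.561.

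Between the libraries, the members were alike in most genes. Among the 3217 genes that reached 50 CPM in 1 of the libraries and a sum of 20 UMIs, 97.3% lay within 1.5-fold. At this fold 65 were higher (2.02%) and 23 lower (0.715%) in the sitagliptin-labelled members. At 2-fold, 10 were higher (0.311%) and 9 lower (0.28%). In non-dividing basal cells 69 of 3022 genes were higher (2.28%) and 46 lower (1.52%) at 1.5-fold, and 18 (0.596%) and 22 (0.728%) at 2-fold. For gene lists, which include lower levels, the shares over all 11312 measured genes of the members were 5.12% higher and 5.91% lower at 1.5-fold, with a median log2 ratio of 0.00, and 5.93% and 9.15% over the 10006 measured in non-dividing cells. In such sums, fewer cells with a gene and less RNA of it per cell cannot be told apart.

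The cycle machinery was among the groups that differed little. The 8 genes of the rule summed to 4272 CPM in sitagliptin-labelled and 3578 CPM in PBS-labelled members, a ratio of 1.19, and ranged from 1.02 for Ube2c to 1.44 (1.39 to 1.49) for Top2a, which had 1190 against 828 CPM. Of 91 genes in the 5 mitotic lists, 3 were at least 1.5-fold higher and 0 lower. These were Nusap1, at 398 against 247 CPM (1.61, 1.52 to 1.72), and the tubulins Tuba1c, at 492 against 266 CPM (1.85), and Tuba1b, at 1078 against 700 CPM (1.54). Tuba1c and Tuba1b share 71.9% and 65.7% of their 3′ end words with other genes, and their values are uncertain for that reason. The medians of these lists lay between 0.08 for condensin and cohesin and 0.19 for the spindle. Of 47 replication genes 0 were higher and 1 lower, the chromatin assembly factor subunit Chaf1b, at 20.6 against 31.2 CPM (0.662, 0.523 to 0.832). Medians were −0.21 for origin licensing, where 12 of 16 genes were below 1 in ratio without passing 1.5-fold, −0.13 for nucleotide supply and −0.04 for the fork. Ccne2, the cyclin E that starts replication with Cdk2, stood apart in its list of 16 G1/S genes, at 44.0 CPM in sitagliptin-labelled against 18.2 CPM in PBS-labelled members (2.41, 1.95 to 2.98). Its paralogue Ccne1 had 9.94 and 12.6 CPM, a ratio of 0.789 (0.554 to 1.11).

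Among genes that restrain the cycle, Btg1, an antiproliferative cofactor of mRNA deadenylation, had 506 CPM in sitagliptin-labelled against 276 CPM in PBS-labelled members (1.83, 1.73 to 1.94), and Trp53inp1, a target of p53, 62.1 against 35.5 CPM (1.75). Btg1 shares 20% of its 3′ end words with other genes. Btg2 went the other way, at 54.1 against 84.0 CPM (0.644). The other 14 of 17 measured genes of this list, with a median of 0.03 over all of it, lay within 1.5-fold, among them the inhibitors Cdkn1a (116 and 118 CPM) and Cdkn1b (73.8 and 62.5 CPM).

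The genes with the largest ratios included targets of the glucocorticoid receptor. Zbtb16, a zinc finger repressor, had 127 CPM in sitagliptin-labelled against 45.9 CPM in PBS-labelled members (2.76, 2.43 to 3.14), and Tsc22d3, the glucocorticoid-induced leucine zipper, 101 against 45.9 CPM (2.20, 1.93 to 2.52). Fkbp5, a co-chaperone of the receptor, had 35.5 against 12.5 CPM (2.85, 2.22 to 3.66) and Txnip, an inhibitor of thioredoxin, 206 against 119 CPM (1.73). These were the 4 of 13 measured genes of the list that were at least 1.5-fold higher. Cebpd was lower, at 4.97 against 9.54 CPM, and the median was 0.34, against 0.23 in non-dividing basal cells, where 5 of 13 were higher and 0 lower. Klf9, Sgk1 and Per1, other classical targets, had ratios of 1.26, 1.28 and 1.24 in the members.

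Of the 12 genes named as higher, 11 were also past 1.5-fold in non-dividing basal cells, where 2.28% of 3022 genes were. Their ratios ran from 1.34 to 2.49 in basal cells with 1 or 2 cycle genes. In dividing suprabasal cells they ran from 1.36 to 4.94. The share of all genes past 1.5-fold was not counted in these other groups. Dividing suprabasal cells were also deeper than the members, with medians of 14991 sitagliptin-labelled and 23247 PBS-labelled UMIs. Nmt1, which attaches myristate to proteins, had 239 CPM in sitagliptin-labelled against 99.0 CPM in PBS-labelled members (2.42, 2.21 to 2.64) and a ratio of 2.54 in non-dividing cells. Dync1i2, an intermediate chain of the dynein motor, had 333 against 153 CPM (2.17) and the same direction in non-dividing cells (2.15). Defb1, an epithelial defensin (2.26), Nifk, a nucleolar partner of the Mki67 protein (2.08), Ppp2r3a, a regulatory subunit of phosphatase 2A (1.93), Tex10 (1.87), Ino80b of a chromatin remodeller (1.86) and Tsix, the antisense RNA of Xist (1.87), were higher in the members as well. Tsix overlaps Xist, and no source used here says whether counting was by strand. In dividing suprabasal cells the gene below 1.5-fold was Tsix (1.36), and in the other groups it was Fst, which encodes follistatin, an inhibitor of activins. Fst had 52.4 CPM in sitagliptin-labelled against 27.0 CPM in PBS-labelled members (1.94, 1.62 to 2.32), but 50.2 and 49.4 CPM in non-dividing cells (1.02). Its ratio was 1.34 in basal cells with 1 or 2 cycle genes and 1.56 in dividing suprabasal cells, and among the 227 and 35 members left by the strictest filter on markers of other cell types, described below, it turned to 0.787. No difference between these ratios was tested.

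**Figure D4:**
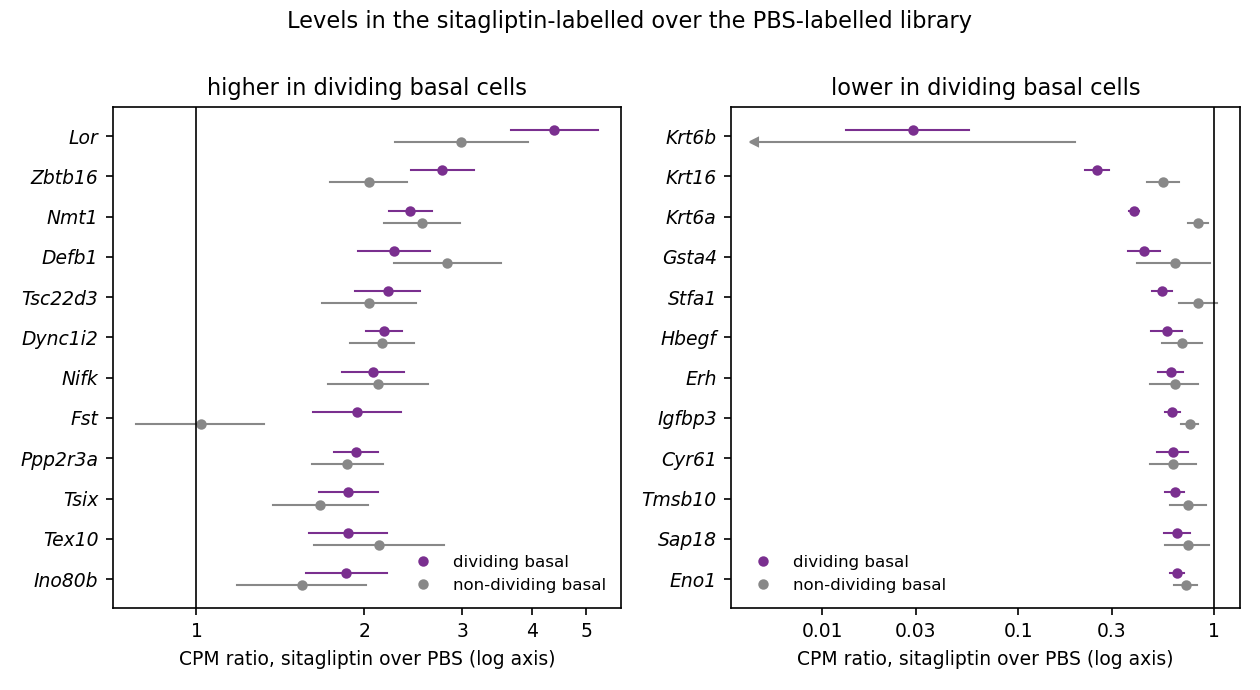
Ratio of CPM in the sitagliptin-labelled over the PBS-labelled library (log axis) for the 12 genes named as higher (left) and lower (right), in dividing (purple) and non-dividing (grey) basal keratinocytes; lines are exact 95% intervals, and an arrow marks a group with 0 UMIs in the sitagliptin-labelled library. Most purple and grey points lie close together on the left, apart from Fst (1.94 and 1.02), while Krt16 (0.253 and 0.549) and Krt6a (0.388 and 0.827) lie farther from 1 in dividing cells.

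Among the 13 lower genes open to naming, which leave out markers of other cell types, the largest differences were in keratins of wounded or activated epidermis. Krt6a had 264 CPM in sitagliptin-labelled against 682 CPM in PBS-labelled members (0.388, 0.366 to 0.412), Krt16 48.0 against 190 CPM (0.253, 0.220 to 0.289), and Krt6b 1.72 against 59.0 CPM, or 9 against 482 UMIs (0.029, 0.013 to 0.056). Krt16 shares 32.55% of its 3′ end words with other genes, Krt6b 1.28% and Krt6a 0%. In non-dividing basal cells Krt6a had 247 against 298 CPM (0.827) and Krt16 82.4 against 150 CPM (0.549), while Krt6b had 0 and 36 UMIs. In basal cells with 1 or 2 cycle genes the ratios were 0.436 for Krt6a and 0.272 for Krt16, and in dividing suprabasal cells 0.283 and 0.319. The ratios of Krt6a and Krt16 were thus closest to 1 in non-dividing cells, while that of Krt6b, with 0 sitagliptin-labelled UMIs there, was not. The differences between the groups were not tested. Of the 12 genes named as lower, 5 were past 1.5-fold in non-dividing basal cells, where 1.52% of 3022 genes were. Their ratios ran from 0 to 0.827 in those cells and from 0.040 to 0.750 in basal cells with 1 or 2 cycle genes. In dividing suprabasal cells they ran from 0.064 to 0.635. Here too the share of all genes past 1.5-fold was not counted in the other groups. Krt17, another keratin of this set, went the other way in the members, at 436 against 374 CPM (1.16, 1.10 to 1.23). It shares 17.2% of its 3′ end words with other genes.

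Krt6a was found in 237 sitagliptin-labelled and 292 PBS-labelled members and Krt16 in 109 and 202, while few cells carried most of the Krt6b. The 4 PBS-labelled cells with the most Krt6b held 440 of the 482 UMIs (91.3%), in a total of 33 cells with the gene, and without the top 4 of each library the level was 0.768 CPM in sitagliptin-labelled and 5.23 CPM in PBS-labelled members. The 4 cells with the most Krt16 held 33.9% of its UMIs in the sitagliptin-labelled and 51.4% in the PBS-labelled library, and without them Krt16 had 32.1 CPM in sitagliptin-labelled and 94.0 CPM in PBS-labelled members. For Krt6a the top 4 held 180 of 1384 UMIs in the sitagliptin-labelled and 1341 of 5571 in the PBS-labelled library, and 233 and 528 CPM were left without them. Of the members with Krt6b, 1 of 8 in the sitagliptin-labelled and 21 of 33 in the PBS-labelled library also held Krt6a and Krt16. Thinned to 3000 UMIs, Krt6a was found in 24.9% of sitagliptin-labelled and 29.0% of PBS-labelled members, Krt16 in 9.30% and 15.4%, and Krt6b in 3 and 13 cells, against 5.90%, 4.26% and 1.31% of PBS-labelled non-keratinocyte barcodes. The share of cells with Krt6a therefore differed less than its summed level.

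Lor, which encodes loricrin of the cornified envelope, had the largest ratio among the genes named as higher, at 89.5 CPM in sitagliptin-labelled against 20.4 CPM in PBS-labelled members (4.38, 3.66 to 5.26). A single sitagliptin-labelled cell held 250 of the 468 UMIs. Without the cell richest in Lor in each library the ratio was 2.08. Thinned, Lor was found in 13.3% of sitagliptin-labelled and 7.22% of PBS-labelled members, against 6.56% of PBS-labelled non-keratinocyte barcodes. The summed level in those barcodes was far higher, at 764 CPM, with 1552 UMIs in 38 of 305 barcodes. Without its richest cell the sitagliptin-labelled level was 41.7 CPM. Lor would then have been over 10 times higher in those barcodes and not open to naming. Other genes of late differentiation were higher at low levels, with 6 of 9 measured genes past 1.5-fold and a median of 0.98, among them Flg2 (23.1 against 5.02 CPM, a ratio of 4.61, or 12.1 against 4.78 CPM without the richest cell of each library), Hrnr (ratio 2.59) and Flg (ratio 2.31), and 9 of 9 in non-dividing cells (median 1.01). The part of free RNA in these levels was not tested.

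**Figure D5:**
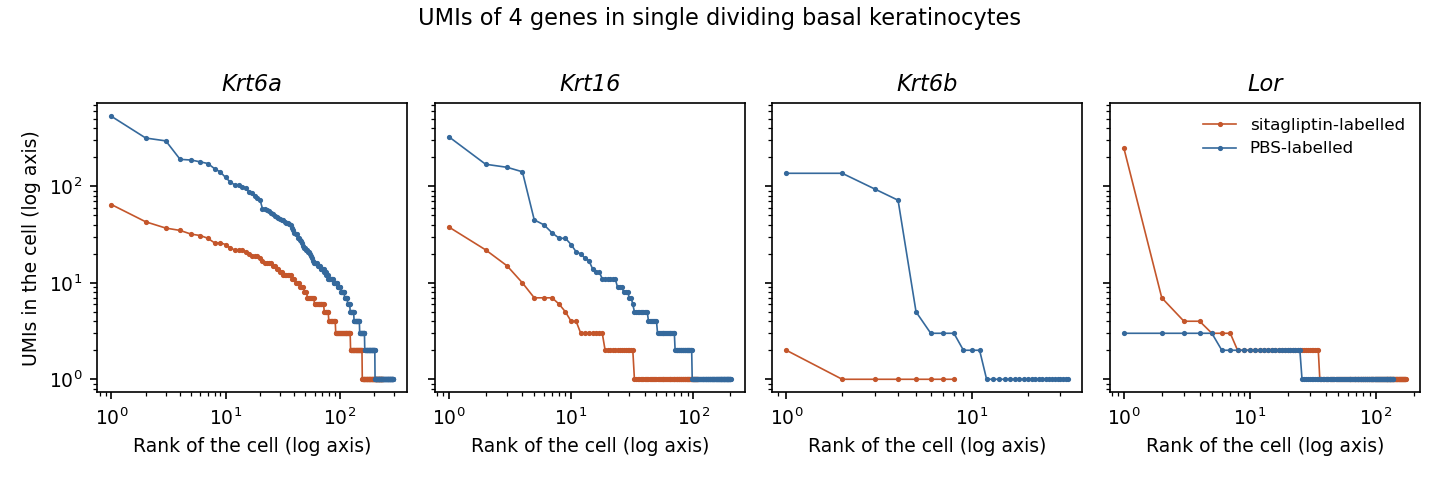
UMIs of Krt6a, Krt16, Krt6b and Lor in each dividing basal keratinocyte with at least 1 (vertical log axis), in order of the cell's rank (horizontal log axis), in the sitagliptin-labelled (orange) and the PBS-labelled library (blue). For Krt6b 4 PBS-labelled cells hold 440 of 482 UMIs, and for Lor a single sitagliptin-labelled cell holds 250 of 468.

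The wider list of wound and activation genes had 9 of 15 measured genes at least 1.5-fold lower and 2 higher in the sitagliptin-labelled members, with a median of −0.79. In non-dividing cells 4 of 13 were lower and 2 higher, with a median of −0.27. Sprr1b, a precursor of the cornified envelope induced in wounds, had 5.93 against 23.5 CPM (0.252), Hbegf, a ligand of the epidermal growth factor receptor, 30.4 against 53.1 CPM (0.572), and the stefin Stfa1 80.8 against 149 CPM (0.541), although 45.9% of the 3′ end words of Stfa1 occur in other genes. The gap junction gene Gjb2 had 2 against 113 UMIs, with 49 of the 113 in 1 cell. The 2 genes that were higher were ligands of the same receptor: Ereg had 45 against 9 UMIs, with 30 of the 45 in 1 cell, and Tgfa had 19.9 against 12.6 CPM (1.58). Areg, a further ligand, had 3.25 against 5.87 CPM (0.553). Also lower among named genes were Gsta4, a glutathione transferase (28.1 against 64.2 CPM), Igfbp3 (148 against 243 CPM) and the matricellular Cyr61 (33.3 against 54.2 CPM). So were, with 42.5 to 71.6% of 3′ end words shared, Erh, Tmsb10, Sap18 and the glycolytic enzyme Eno1 (0.647). Tmsb10 had 1305 CPM in PBS-labelled non-keratinocyte barcodes, in 257 of 305 of them, against 131 CPM in PBS-labelled members. It thus lay just under the 10-fold limit for naming, and the part of other cells' RNA in its ratio was not tested. Ctgf, a relative of Cyr61 and like it a target of the coactivator Yap, had the opposite direction, at 60 against 15 UMIs (6.25, 3.50 to 11.8).

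Depth and the markers of other cells moved with these differences. The 11 macrophage markers summed to 9.18 CPM in sitagliptin-labelled and 316 CPM in PBS-labelled members, all 11 at least 1.5-fold lower. In the sitagliptin-labelled members Retnla of this list was at 0 and Lyz2 had 1 UMI, against 402 and 542 UMIs in the PBS-labelled ones. Lyz2 shares 36.2% of its 3′ end words with other genes. A macrophage UMI was found in 36 of 667 sitagliptin-labelled and 465 of 651 PBS-labelled members, and 5 or more in 1 and 38. Fibroblast (4.59 and 50.4 CPM), endothelial (2.48 and 19.2 CPM) and muscle and red cell markers (3.06 and 65.3 CPM) were lower in the sitagliptin-labelled members too, and Langerhans and dendritic markers summed to 313 and 494 CPM and melanocyte markers to 14.5 and 15.5 CPM. Markers of T and innate lymphoid cells went the other way, at 207 and 178 CPM, most of it Thy1 (994 and 1278 UMIs), with 3 of 5 measured genes at least 1.5-fold higher and 1, Cd52, lower. Leaving out cells with any UMI of 14 defining markers of other cell types, such as Ptprc, Lyz2 and Col1a1, kept 630 sitagliptin-labelled and 218 PBS-labelled members. Krt6b then had a ratio of 0.030, Krt16 0.256, Krt6a 0.573, Gsta4 0.715, Lor 4.21, Zbtb16 3.01 and Nmt1 2.30. With a stricter filter, at most 2 UMIs from all marker lists of other cell types, 227 sitagliptin-labelled and 35 PBS-labelled members were left. The ratio was then 0.900 for Krt16, 1.02 for Krt6b, 0.615 for Krt6a and 1.43 for Lor. The Krt6b value rests on few UMIs, as all 667 sitagliptin-labelled members together held 9 of them, in 8 cells. The limit was not scaled to depth and the lists hold Thy1 and Epcam, so deep keratinocytes could be left out too. Without the 8% of members with the most UMIs in each library, where cells captured in pairs would collect, the ratios were 0.561 for Krt6a, 0.385 for Krt16, 0.115 for Krt6b and 4.81 for Lor. The part of free RNA and of paired cells in the lower wound keratins was not tested.

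Interferon response genes were lower in the sitagliptin-labelled members too. Of 12 measured genes 8 were at least 1.5-fold lower in the sitagliptin-labelled members and 0 higher, with a median of −0.76, and in non-dividing cells 9 were lower and 0 higher. Ifi27l2a had 50.3 against 97.2 CPM (0.517), Bst2, which tethers viruses to the membrane, 5.35 against 15.5 CPM, and Irf7, the regulator of type I interferon genes, 0.765 against 6.85 CPM. Ifitm3, which blocks viral entry, was within 1.5-fold, at 854 against 955 CPM (0.894). The macrophage markers given above moved in the same direction, and their part was not tested.

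Genes of basal adhesion were close between the libraries. The members of each library had passed the same keratin limits, so likeness in basal genes partly repeats that choice. Of 15 adhesion genes 0 passed 1.5-fold in either direction, with a median of −0.07. Col17a1, the hemidesmosomal collagen, had 1224 CPM in sitagliptin-labelled and 1282 CPM in PBS-labelled members (0.954), and Itgb4, its integrin partner, 291 and 318 CPM. In the list of basal identity 2 of 16 genes were at least 1.5-fold higher, Igfbp5 (21 against 15 UMIs) and Ctgf, and 3 lower, Igfbp2 (8 against 24 UMIs), Igfbp3 and Cyr61, with a median of 0.11. Krt14 had a ratio of 0.989 and Krt15 of 0.921, while Trp63 was higher, at 517 against 367 CPM (1.41, 1.34 to 1.48). Jag2 and Dll1, Notch ligands of the basal layer, had ratios of 1.04 and 1.11. Among markers of the bulge and outer root sheath, 4 of 7 measured genes were at least 1.5-fold higher and 0 lower, including the stem cell factors Sox9 (47.2 against 21.9 CPM) and Lhx2 (14.3 against 4.04 CPM). The follicle limits left out a larger part of the sitagliptin-labelled cells, as given above, and whether follicle cells remain among the members was not tested. Dpp4, the target of the compound, was sparse, with 34 UMIs in 30 sitagliptin-labelled and 58 UMIs in 51 PBS-labelled members, or 6.50 and 7.10 CPM (0.916, 0.581 to 1.42). Its relatives Dpp8 and Dpp9 had 51.4 and 43.0 CPM and 31.4 and 30.8 CPM.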

How the data were processed

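Droplet RNA profiles of mouse skin were used from 1 library per treatment. The authors deposited raw UMI counts for 31053 genes in each barcode, per the file headers. Cell Ranger 3.1.0 and the mm10 build were used, per the submitters' processing notes. The sources used here do not give how cells were called.

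The members and the 35 gene lists were chosen with earlier results of these data known, so no list is independent support. UMIs were summed per library over the cells of a group and scaled to CPM; ratios have exact conditional binomial and shares exact Clopper-Pearson 95% intervals. The members' sums were 5231636 UMIs in the sitagliptin-labelled and 8171885 in the PBS-labelled library. Without replicates, no p-value was computed. Genes were compared with at least 50 CPM in either group and 20 UMIs in all; list medians took genes with 20 UMIs and added 1 CPM to each level. A bound for 0 UMIs uses 3 UMIs. Up to 12 genes each way with the largest ratio past 1.5-fold (dividing over non-dividing: 2-fold in both libraries, ranked by the smaller change) were named. Mitochondrial, ribosomal, haemoglobin, predicted, Xist, Y-linked, dissociation and non-keratinocyte marker genes, and genes over 10 times higher in non-keratinocyte barcodes, were left out. From each list, members with the most UMIs or an extreme ratio could be named; other list members named were chosen after their values were seen. No doublet caller was run, and doublets were met by leaving cells out. Thinning drew UMIs without replacement. The level step was tested on simulated data. GENCODE annotation matched 30934 gene identifiers. Python 3.11.15, numpy 2.4.6, scipy 1.17.1, pandas 2.3.3 and matplotlib 3.10.9 were used. Alternatives were other limits on cycle genes, UMIs, mitochondrial share and levels, other totals and averages, and leaving out cells; the effect is given in the closing section.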

Additional observations from a re-analysis of the deposited data

Results flagged for a closer look

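Gene lists of 3 kinds had summed levels on opposite sides of 1 in dividing and non-dividing basal keratinocytes, sitagliptin-labelled over PBS-labelled, with counting intervals that leave out 1 on each side. The difference between the groups was not tested. Nucleotide supply had a ratio of 0.945 in dividing and 1.16 in non-dividing cells. Ribosome biogenesis had 0.978 in dividing and 1.06 in non-dividing cells, but its median log2 ratio over genes was positive in both, at 0.003 and 0.096. Hair matrix markers had 1.06 in dividing and 0.913 in non-dividing cells, but 2 of the 10 genes were measured in dividing and 1 in non-dividing cells, and Gata3 gave 2042 of the 2073 sitagliptin-labelled and 3011 of the 3058 PBS-labelled UMIs in dividing cells. The nucleotide supply list holds Rrm1, Tyms and Dut, which make the building blocks of DNA.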

How the results depend on the processing

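With 1 library per treatment, no result below has an error between animals. The share of dividing cells was 56.4% in the sitagliptin-labelled and 52.2% in the PBS-labelled library with at least 2 cycle genes, 43.6% and 40.1% with at least 4, and 43.0% and 35.1% in a thinning before the cycle condition, a ratio of 1.22. It was 68.4% and 49.7% with at least 5000 UMIs, a ratio of 1.38, 31.5% in the sitagliptin-labelled library with at least 1000 UMIs, where the ratio turned to 0.721, and 55.3% and 65.4% with at most 5% mitochondrial UMIs, where it turned to 0.846. Without cells with 3 or more UMIs of other cell types' markers (lists that include Epcam and Cd74), which left 227 and 35 members, it was 33.0% and 15.4%, a ratio of 2.14. With that filter 317 genes were at least 1.5-fold higher, 260 lower and 113 at least 2-fold apart between the libraries. Fst (0.787) and Krt6b (1.02) turned direction, Krt6b on few UMIs. The cause was not tested. From 50 to 20 CPM, counts became 138 higher, 76 lower and 49 apart, and 308 higher and 15 lower for dividing over non-dividing; with no CPM minimum they became 579, 668 and 495, and 522 and 56, because more genes enter. Lower genes numbered 37 with at most 5% mitochondrial UMIs, 50 thinned and 40 with the total taken without mitochondrial, ribosomal and haemoglobin genes; lower in dividing cells were 11 and 12 with the mitochondrial limit and that total. The share with more S phase UMIs was 14.0% and 16.5% with at least 2 cycle genes and 7.48% in the sitagliptin-labelled library with at least 4. Of 360 values of the genes named between libraries, 314 moved by less than the counting interval, 44 by more and 2 turned; of 440 between dividing and non-dividing cells, 413 did, 27 moved and 0 turned. Leaving out cells with a defining marker of another type, and the member richest in a gene, were chosen after seeing the data. No paired analysis was possible because each treatment had 1 library.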
